A study of Rattus norvegicus with 14 samples.

Results

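Expression of 7 B cell genes, Cd79b, Ms4a1, Cr2, Fcer2, Cd22, Blk and Stap1, was followed in peripheral blood mononuclear cells (PBMC) of rats with and without collagen-induced arthritis (CIA). The genes were chosen by symbol, out of 14217 genes with a probe set of a single symbol, and all 7 had at least 1. Together they had 14 probe sets, of which 13 passed a filter on low signals, namely a signal over the median of its array on 2 or more arrays out of 14. Fcer2, Cr2 and Stap1 entered because they had been seen lower on these arrays with methotrexate, so every comparison that involves methotrexate is given for the 7 genes as a description without a test.

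B cells recognise antigen through a membrane immunoglobulin whose signal is carried inward by the Cd79a and Cd79b chains, and Src-family kinases such as Blk and Lyn start that signal by phosphorylating those chains. The signal is raised by Cr2 (CD21), a co-receptor that binds fragments of complement, and lowered by Cd22, which recruits the phosphatase Ptpn6. Ms4a1 (CD20) is a membrane protein of mature B cells and the target of B cell depleting antibodies in rheumatoid arthritis. Fcer2 (CD23) is the low-affinity receptor for IgE, carried mainly by mature resting B cells, and Stap1 is an adaptor protein phosphorylated by the kinase Tec after the B cell receptor is engaged. Blk and Stap1 are intracellular, so the 7 genes are not all surface receptors.

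All rats were female Wistar rats, and each array measured the PBMC of 1 blood sample, taken when the rat was killed. NOCIA_B were healthy rats before therapy (3 arrays), and CIA_B were rats made arthritic with bovine type II collagen in adjuvant, also before therapy (2 arrays). NOCIAMS_A were healthy rats after 34 days of mechanical stimulation (MS, a thin needle inserted and twirled in the skin of the back and leg, called acupuncture in the labels; 3 arrays). MS_A were arthritic rats after 34 days of the same stimulation (3 arrays), and MTXMS_A were arthritic rats that received stimulation together with weekly methotrexate (MTX, a folate antagonist given against arthritis; 3 arrays). Every group sampled at day 34 had received stimulation, and none had methotrexate alone, so time and stimulation cannot be told apart, and methotrexate was measured only on top of stimulation. Signals come from a mixture of blood cells, in which fewer B cells and less RNA per B cell cannot be told apart.

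A pair of arrays stood apart from the rest in mean correlation. NOCIA_B replicate 3 had the lowest mean correlation with the other arrays (0.855) and the highest erythroid score (2.14, the mean over 12 red cell genes of the log2 signal minus each gene's mean), and MTXMS_A replicate 3 had the second lowest correlation (0.882), the highest actin 3' to 5' signal ratio (5.01, a sign of RNA or labelling quality) and the lowest erythroid score (-4.39). The label of the cells fitted their markers: Cd3d, Cd3e and Cd3g of T cells, Klrd1, Klrk1 and Nkg7 of NK cells, Cd14, Cd68 and Csf1r of monocytes and Cd79b, Ms4a1 and Cd22 of B cells were each above the array median on all 14 arrays. Values are log2 of the MAS5 signal, a level on a relative scale that may be compared between arrays for 1 probe set but not between probe sets. Where a gene had several probe sets, the brightest stands for it.

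Fcer2 was the gene with the clearest separation. Its log2 signal was 8.86, 8.80 and 8.88 in NOCIA_B, 9.46 and 8.85 in CIA_B, 9.59, 9.10 and 9.52 in NOCIAMS_A, 10.38, 9.43 and 8.72 in MS_A, and 6.88, 7.66 and 7.92 in MTXMS_A. All 3 MTXMS_A arrays lay below all 11 others, the highest of them 0.79 under the lowest of the rest. In the order of group means MS_A stood at 9.51 ± 0.83 (SD, n = 3), NOCIAMS_A at 9.40 ± 0.27 (n = 3), CIA_B at 9.15 ± 0.43 (n = 2), NOCIA_B at 8.85 ± 0.04 (n = 3) and MTXMS_A at 7.49 ± 0.54 (n = 3). Only the last step, 1.36, exceeded the pooled SD within groups of 0.51. The mean log2 difference of MTXMS_A to MS_A was -2.02 ± 0.39 (standard error, SE), a 4.06-fold lower signal, and to CIA_B it was -1.66 ± 0.43, or 3.16-fold lower. Of all 18515 probe sets tested, 1.2% had all 3 MTXMS_A arrays below all others, and nothing is read from Fcer2 being among them since it was chosen for this. The other probe set of Fcer2 (1369872_a_at) was above the median on 0 arrays, with log2 signals of 1.40 to 5.70, and adds no second reading.

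Stap1 had the same separation in its brighter probe set (1393926_at). The log2 signals were 8.07, 7.98 and 8.25 in NOCIA_B, 8.18 and 8.05 in CIA_B, 7.88, 7.59 and 8.10 in NOCIAMS_A, 8.68, 8.81 and 8.47 in MS_A, and 6.68, 7.58 and 7.34 in MTXMS_A. The MTXMS_A arrays were again the 3 lowest of 14, but here replicate 2 lay only just under the lowest healthy stimulated array (7.58 against 7.59). MTXMS_A was -1.45 ± 0.24 to MS_A (2.73-fold lower) and -0.91 ± 0.27 to CIA_B (1.88-fold lower). The dimmer probe set of Stap1 (1382337_at) followed the brighter with r = 0.75 over the 14 arrays, but not on every array. MTXMS_A replicates 1 and 2 were at 5.67 and 6.08, under all 11 others, and replicate 3 was at 7.52, inside their range of 6.46 to 7.88. In this dimmer set MTXMS_A was -1.34 ± 0.40 to MS_A without overlap, and -0.34 ± 0.44 to CIA_B with overlap. The separation of all 3 methotrexate arrays thus held in 1 of the 2 Stap1 probe sets.

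Cr2 was low on 2 of the 3 methotrexate arrays. Its log2 signal in the brightest of 5 probe sets was 9.16, 10.39 and 10.09 in NOCIA_B, 9.59 and 9.32 in CIA_B, 10.07, 9.58 and 10.13 in NOCIAMS_A, 10.75, 10.49 and 10.07 in MS_A, and 7.99, 8.93 and 9.66 in MTXMS_A. Replicates 1 and 2 of MTXMS_A were under all arrays of the other groups, which 3.77% of all probe sets showed, and replicate 3 was above both CIA_B arrays. None of the 4 dimmer probe sets had both replicates under all other arrays, so this held in 1 of the 5 Cr2 sets. The log2 difference of MTXMS_A to MS_A was -1.58 ± 0.42 with no overlap, and to CIA_B -0.59 ± 0.46 with overlap. Without MTXMS_A replicate 3 these values were -1.98 and -0.996. The 4 dimmer Cr2 probe sets were also lower in MTXMS_A than in MS_A, by log2 differences of -0.39 to -0.91, but against CIA_B they lay between -0.33 and 0.11, and they correlated with the brightest at r = 0.52 to 0.68.

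**Figure D1:**
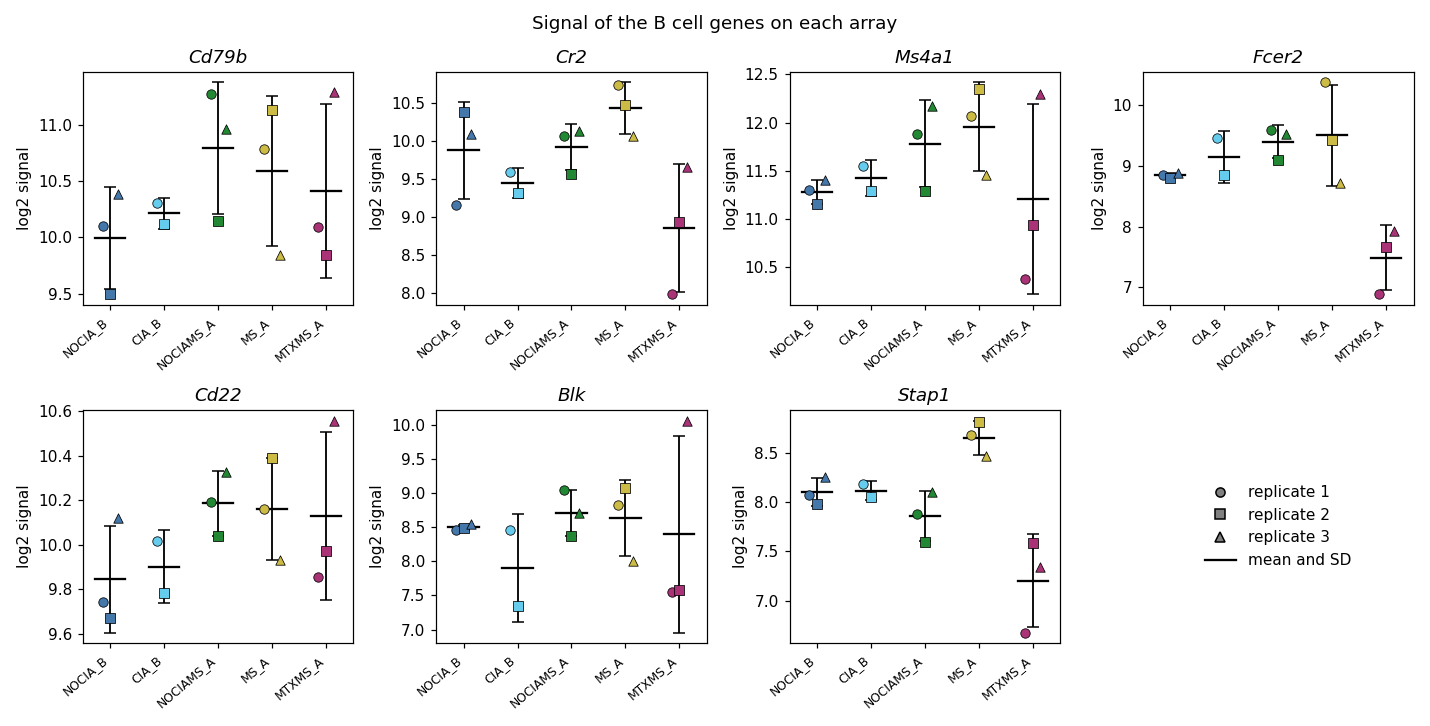
Log2 MAS5 signal of the 7 genes (brightest probe set each, 1 panel a gene) by group, 1 point an array for 14 arrays; marker shapes give the replicate number, the line the group mean and the bar the SD, and the vertical axes differ between panels and do not start at 0. All 3 MTXMS_A arrays are the lowest for Fcer2 (6.88 to 7.92) and Stap1 (6.68 to 7.58), while MTXMS_A replicate 3 is the highest array for Cd79b (11.29), Cd22 (10.56) and Blk (10.07).

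The remaining receptor genes did not separate. Ms4a1, the CD20 gene, gave 11.30, 11.15 and 11.40 in NOCIA_B, 11.56 and 11.29 in CIA_B, 11.88, 11.29 and 12.17 in NOCIAMS_A, 12.07, 12.35 and 11.45 in MS_A, and 10.38, 10.94 and 12.29 in MTXMS_A. Replicates 1 and 2 of MTXMS_A were the 2 lowest arrays and replicate 3 was the second highest, so the group spanned nearly the whole range. Its difference to MS_A was -0.75 ± 0.43, and -1.30 without replicate 3.

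Cd79b, the signalling chain of the receptor, gave 10.10, 9.49 and 10.38 in NOCIA_B, 10.31 and 10.12 in CIA_B, 11.28, 10.15 and 10.96 in NOCIAMS_A, 10.78, 11.13 and 9.85 in MS_A, and 10.10, 9.84 and 11.29 in MTXMS_A. Cd22, the inhibitory receptor, had the narrowest range of the 7 genes, from 9.67 to 10.56, and its MTXMS_A arrays were at 9.85, 9.97 and 10.56. For both genes replicate 3 of MTXMS_A was above all 11 arrays of the other groups, as for 13.4% of all probe sets tested. Replicates 1 and 2 lay inside the range of those 11. The log2 differences of MTXMS_A to MS_A were -0.18 ± 0.45 for Cd79b and -0.03 ± 0.23 for Cd22.

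Blk, the Src-family kinase, showed the widest spread among the methotrexate arrays. It was at 8.47, 8.48 and 8.55 in NOCIA_B, 8.46 and 7.35 in CIA_B, 9.05, 8.38 and 8.71 in NOCIAMS_A, 8.82, 9.08 and 8.01 in MS_A, and 7.55, 7.58 and 10.07 in MTXMS_A. Replicate 3 was 2.50 above the mean of replicates 1 and 2 and above every other array, and the second Blk probe set (1385962_x_at) also had replicate 3 highest of all, at 8.25 against at most 7.86 elsewhere. The difference of MTXMS_A to MS_A was -0.24 ± 0.58 with all arrays and -1.07 without replicate 3, and that to CIA_B turned from 0.49 to -0.34.

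**Figure D2:**
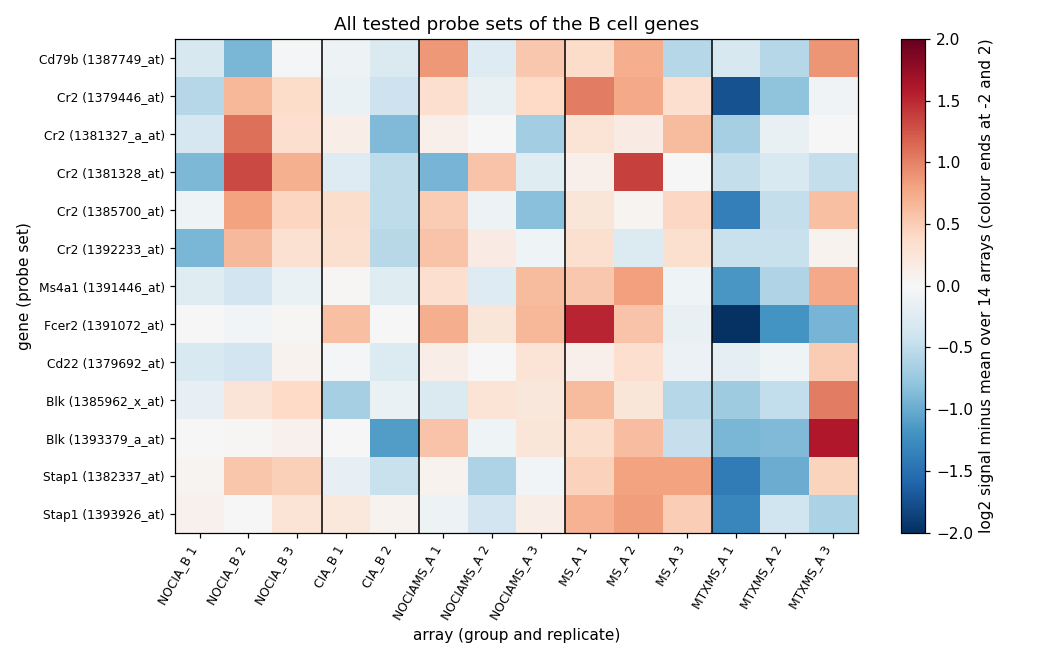
Log2 signal of the 13 tested probe sets (rows) on 14 arrays (columns), each minus its mean over the arrays, from blue (lower) to red (higher), with vertical lines between the groups. MTXMS_A replicates 1 and 2 are below the row mean in all 7 genes' brightest probe sets, and in the third only Cr2, Fcer2 and the brighter Stap1 set among the genes' brightest probe sets remain below it.

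Read across genes, the methotrexate arrays fell into 2 patterns. The mean of replicates 1 and 2 was below the mean of the 11 other arrays for all 7 genes, with a median difference of -0.97, against 0.04 over all 18515 probe sets tested. Fcer2, Cr2 and Stap1 were chosen for low values on these arrays, so nothing is read from that count and median. Replicate 3 was the highest of the 3 methotrexate arrays for 6 of the 7 genes, all but Stap1, as for 36.0% of the probe sets. It was above the mean of the 11 arrays for 4 of the 7 (Cd79b, Ms4a1, Cd22 and Blk) and below it for Fcer2 (-1.31), Stap1 (-0.84) and Cr2 (-0.30). Of the 22 other genes of a B cell list that had a probe set tested, 16 were below the mean of the 11 arrays in replicates 1 and 2 (median -0.59), 14 were above it in replicate 3 (median 0.29), and 7 were below it in both. Over all probe sets tested, 26.1% were below it in both and 19.8% were below it in replicates 1 and 2 and above it in replicate 3. Among these 7 genes were Cd180, a Toll-like receptor homologue of B cells (-1.56 and -1.31), Bcl11a, a transcription factor of early lymphocytes (-1.56 and -0.84), and the phosphatase Ptpn6 (-1.08 and -1.01). Fcer2 had the lowest value of the 29 genes in replicates 1 and 2 (-1.96), and in replicate 3 it was second to Cd180. It was chosen for low values on these arrays, so nothing is read from its rank.

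**Figure D3:**
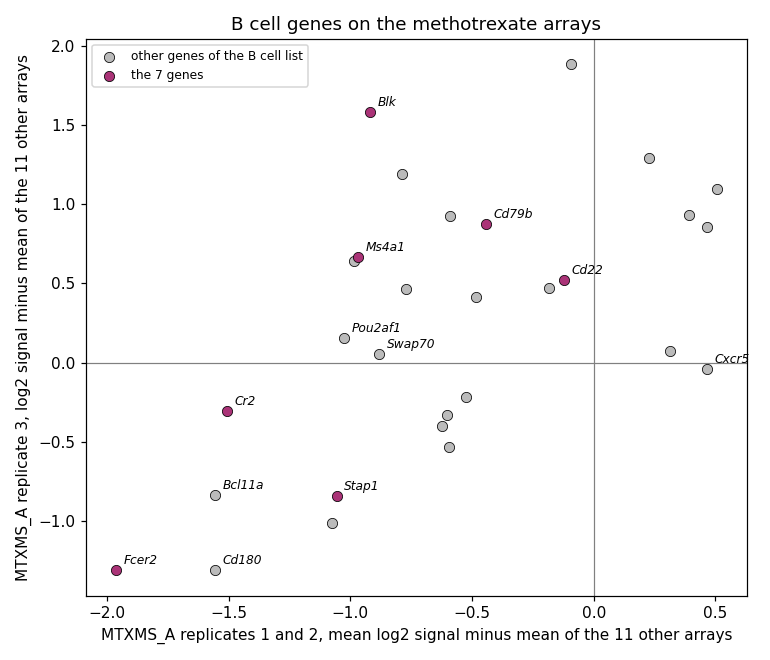
Each point is 1 of 29 B cell genes; the horizontal axis gives the mean log2 signal of MTXMS_A replicates 1 and 2 minus the mean of the 11 arrays of the other groups, the vertical axis the same difference for MTXMS_A replicate 3. All 7 genes lie left of 0, and only Fcer2, Stap1 and Cr2 of them lie below 0 as well, near Cd180 and Bcl11a.

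A comparison within each array removes only what a gene shares with its reference, here Ms4a1 or the 22 other B cell genes. Neither reference was shown to follow the number of B cells. Ms4a1 itself ran from 10.38 to 12.29 within MTXMS_A. On MTXMS_A replicates 1 and 2, 16 of the 22 were below the mean of the 11 other arrays, while Cd40 was 0.50 above it. Fcer2 minus Ms4a1 was -2.44 ± 0.08 in NOCIA_B, -2.27 ± 0.24 in CIA_B, -2.37 ± 0.24 in NOCIAMS_A and -2.45 ± 0.66 in MS_A (SD), and -3.50, -3.28 and -4.37 on the MTXMS_A arrays. The difference was lower on all 3 MTXMS_A arrays than on any other (lowest elsewhere -2.92). Set against Ms4a1, 11 of the 18515 probe sets (0.0594%) had this pattern. Ms4a1 was itself lowest on MTXMS_A replicates 1 and 2, and subtracting it raises the differences there, which makes this share small. Fcer2 was also chosen for low values on these arrays, so nothing is read from the share. Against the mean of the 22 other B cell genes, Fcer2 was at -1.48, -0.88 and -1.24 on the MTXMS_A arrays and from -0.08 to 1.12 on the other 11. The Stap1 values by the same measure were -0.81, -0.07 and -0.94 in MTXMS_A, from -0.47 to -0.21 in NOCIAMS_A and from 0.06 to 0.55 in the other groups, so that MTXMS_A replicate 2 was not the lowest. Cr2 gave -1.25, -0.48 and -0.37, with NOCIA_B replicate 1 (-0.40) between them. These differences restate the signals by which the 3 genes were chosen and carry no test.

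**Figure D4:**
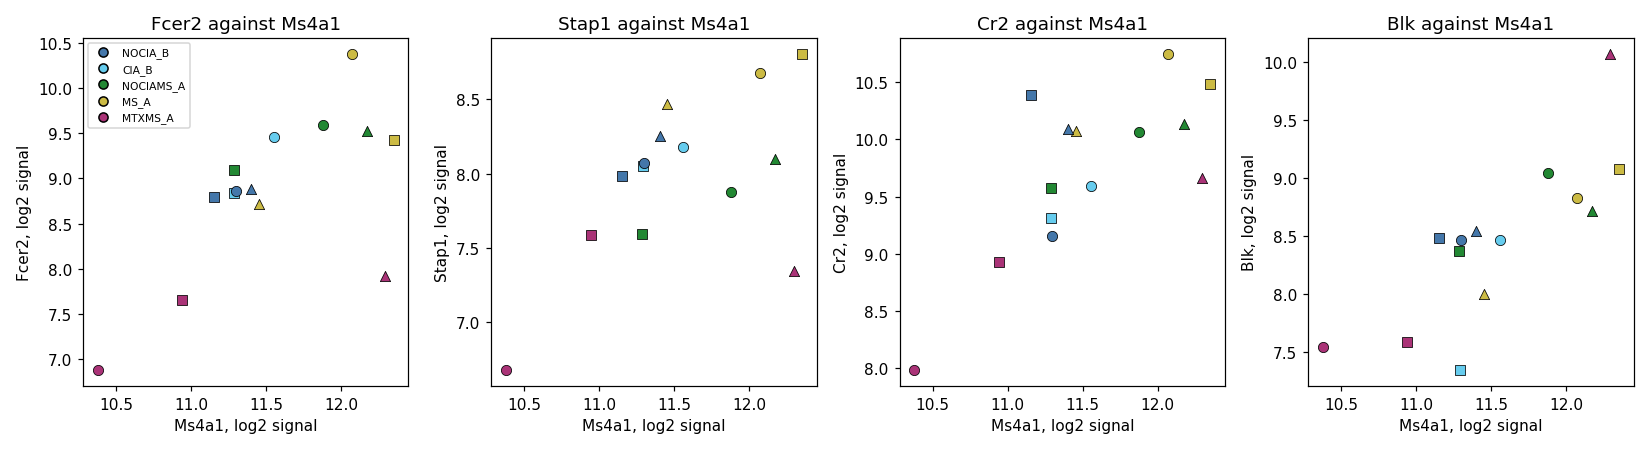
Log2 signal of Fcer2, Stap1, Cr2 and Blk (vertical axes) against that of Ms4a1 (horizontal axes), 1 point an array, coloured by group, with circles, squares and triangles for replicates 1, 2 and 3. MTXMS_A replicate 3 (triangle at Ms4a1 12.29) lies low for Fcer2 (7.92) and Stap1 (7.34) and high for Blk (10.07).

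Markers of other cell types were read on the same arrays, and all ranges of summed signal given here overlapped between MTXMS_A and the other groups. On MTXMS_A the summed signal of 12 erythroid genes ran from 8259 to 142156, against 59577 to 312158 in the other groups, that of 10 monocyte genes from 45942 to 79064 against 52768 to 84490, and that of 16 T cell genes from 66442 to 81912 against 69874 to 106557. Plasma cell genes (7) summed to between 6155 and 8668 in MTXMS_A and to between 6810 and 9083 elsewhere, and NK cell genes (11) to between 24208 and 39556 against 23439 to 67044. CIA_B alone did not overlap with MTXMS_A for T cell genes (91566 to 106557) or NK cell genes (39857 to 43785). Against CIA_B, 15 of 16 T cell genes and 9 of 11 NK genes were lower in MTXMS_A, with medians of -0.50 each. Platelet genes went the other way (11 of 11 higher, median 0.80), and 5 of 10 monocyte genes were lower (median -0.03). Of the monocyte genes 9 of 10, and of the NK genes 11 of 11, were lower in MTXMS_A than in MS_A by group mean, with medians of -0.64 and -0.42. Neutrophil genes (7) and platelet genes (11) had medians of -0.07 and -0.25, and erythroid genes (12) of -1.27. The erythroid value rests on 1 array: the MTXMS_A scores were 0.58, 0.93 and -4.39 in replicates 1 to 3, against -0.29 to 0.98 in MS_A, so that replicates 1 and 2 lay inside the MS_A range. Whether these cell types had a part in the values of the 7 genes was not tested.

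With all 14 arrays, stimulation in arthritic rats (MS_A against CIA_B, the question of what changed over therapy) gave higher mean signals for all 7 genes, but none passed the test, and Fcer2 turned to -0.08 without MS_A replicate 1. The log2 differences were 0.98 ± 0.46 for Cr2, 0.73 ± 0.65 for Blk, 0.54 ± 0.27 for Stap1, 0.54 ± 0.48 for Ms4a1, 0.37 ± 0.50 for Cd79b, 0.36 ± 0.43 for Fcer2 and 0.26 ± 0.25 for Cd22 (SE). Their median was 0.54, against 0.01 over the 10107 genes tested. The adjusted p by limma was 0.616 for Cr2 and Stap1 and higher for the others, and the background was the same: 0.0% of probe sets were called in this comparison at adjusted p under 0.05, and 7.83% had an unadjusted p under 0.05. The groups did not overlap for Cr2 and Stap1, as for 16.2% of all probe sets with MS_A higher. The dimmer Stap1 probe set gave 0.997 ± 0.44, also without overlap, and the 4 dimmer Cr2 sets 0.24 to 0.87. Fcer2, Cr2 and Stap1 were chosen for being lower with methotrexate, against controls that are not named. MS_A and CIA_B may be among those controls, so the values of these 3 cannot be taken as independent of that choice.

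In the B cell list without the 7 genes, 17 of 22 had a higher mean in MS_A than in CIA_B (median 0.44) and none passed. The highest were Cd180 (1.33 ± 0.55) and Bcl11a (1.15 ± 0.46), and the lowest were Cd40, the receptor for T cell help (-0.59 ± 0.60), and Ralgps2 (-0.46 ± 0.39). In a list of B cell receptor signalling, 13 of the 21 genes that are not among the 7 were higher and none passed, with Rasgrp3, an activator of Ras downstream of the receptor, at 1.77 ± 0.51 (adjusted p 0.616 by limma). Platelet genes had the largest median difference of the other cell types, 1.26 (11 of 11 higher), and their scores did not overlap (-1.13 and -0.62 in CIA_B, -0.04 to 0.57 in MS_A). Erythroid genes had a median of 0.74 (11 of 12 higher), monocyte genes of 0.54 (9 of 10 higher) and T cell genes of -0.39 (12 of 16 lower), and their part was not tested.

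In healthy rats (NOCIAMS_A against NOCIA_B) 6 of the 7 genes had a higher mean after stimulation and none passed, with 0.0% of probe sets called and 6.18% at an unadjusted p under 0.05. Cd79b was highest at 0.80 ± 0.45, followed by Fcer2 at 0.56 ± 0.39, Ms4a1 at 0.50 ± 0.43, Cd22 at 0.34 ± 0.23, Blk at 0.21 ± 0.58 and Cr2 at 0.05 ± 0.42, while Stap1 was at -0.24 ± 0.24. The adjusted p values by limma ran from 0.747 to 0.980. The median of the 7 was 0.34 and that of all genes 0.10, and without NOCIA_B replicate 3 the median of the 7 was 0.48. Fcer2 alone of the brightest sets had no overlap between the groups (9.10 to 9.59 after, 8.80 to 8.88 before), as did 6.79% of all probe sets in this direction. Of the 22 other B cell genes 16 were higher (median 0.33), with Ebf1, a factor that sets B cell identity, at 1.05 ± 0.51 and Cd40 at 0.96 ± 0.54 highest, and Cd180 (-0.36 ± 0.49) and Cd24 (-0.25 ± 0.50) lowest. The actin 3' to 5' ratio also differed without overlap (3.35 to 4.36 in NOCIAMS_A, 1.97 to 3.01 in NOCIA_B), platelet genes had a median of -0.69 (11 of 11 lower) and neutrophil genes of 0.89 (6 of 7 higher), and their part was not tested. The direction of Cr2 was not settled, since 3 of its 4 dimmer sets were at -0.53 to -0.58 and its brightest set was at -0.32 without NOCIA_B replicate 1.

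**Figure D5:**
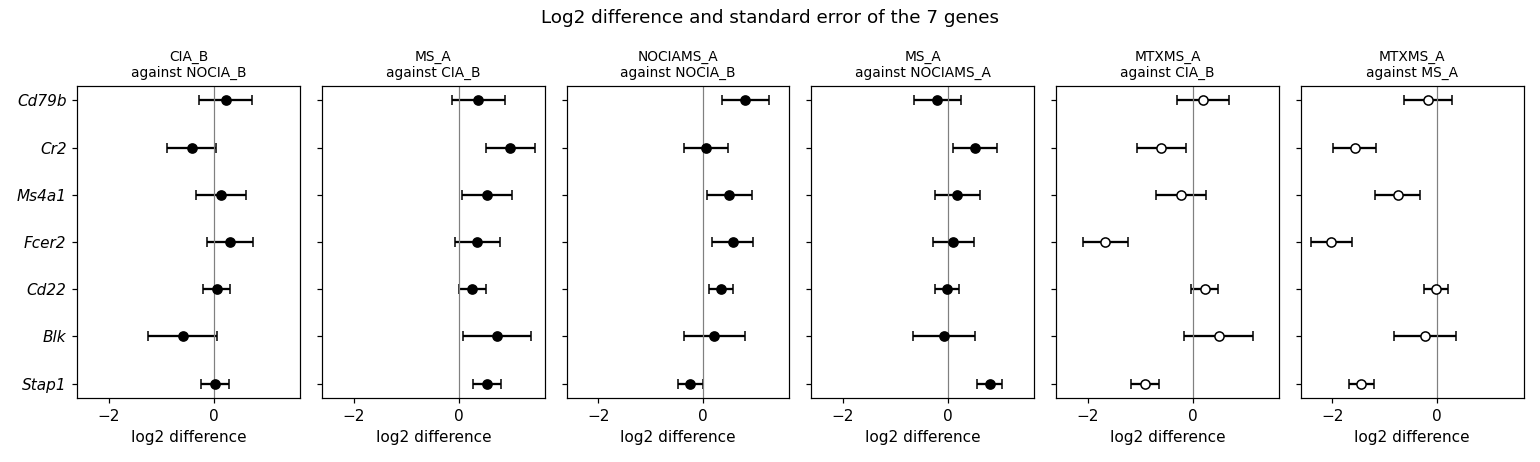
Log2 difference of the first group to the second (points) with its SE (bars) for the 7 genes in 6 comparisons that share arrays; filled points were tested by limma and none passed, open points involve methotrexate and were not tested. Fcer2 (-2.02), Cr2 (-1.58) and Stap1 (-1.45) lie lowest in MTXMS_A against MS_A, where Cd22 (-0.03) lies at 0, and all 7 points lie right of 0 in MS_A against CIA_B.

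Stimulated arthritic and stimulated healthy rats (MS_A against NOCIAMS_A) differed most in Stap1, with no probe set called (0.0%, and 5.68% at an unadjusted p under 0.05). Stap1 was 0.79 ± 0.24 higher in MS_A, 1.73-fold, and 8.47 to 8.81 against 7.59 to 8.10 without overlap, as 7.08% of probe sets were in this direction. Its unadjusted p by limma was 0.00655 and its adjusted p 0.810. MS_A may be among the controls by which Fcer2, Cr2 and Stap1 were chosen. The values and p-values of these genes here thus cannot be taken as independent of that choice. The dimmer Stap1 set gave 0.88 ± 0.40, also without overlap. Cr2 was at 0.51 ± 0.42 and the other 5 genes lay between -0.21 and 0.18, each within its SE of 0, and these 5 turned direction without single arrays (of MS_A or NOCIAMS_A). Among the other B cell genes Cd180 was highest (1.38 ± 0.49) and Ebf1 lowest (-0.70 ± 0.51), and Rasgrp3 led the signalling list (1.22 ± 0.46). The actin ratio was 2.44 to 2.69 in MS_A and 3.35 to 4.36 in NOCIAMS_A, and platelet genes had a median of 0.72 (10 of 11 higher), and their part was not tested.

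The change with stimulation in arthritic rats minus that in healthy rats, tested as an interaction, was 0.78 ± 0.36 for Stap1 (adjusted p 0.384 by limma) and 0.94 ± 0.62 for Cr2 (adjusted p 0.498), and between -0.43 and 0.52 for the other 5. No probe set was called (0.0%), 13.1% had an unadjusted p under 0.05, and without NOCIA_B replicate 1 the count was 980, with none of the 7 genes among them. The dimmer Stap1 set gave 1.55 ± 0.60 (adjusted p 0.360). Cd180 (1.69 ± 0.73) was highest of the other B cell genes and Cd40 (-1.55 ± 0.81) lowest, and Rasgrp3 stood at 3.38 ± 0.68 (adjusted p 0.360). Platelet genes had a median of 2.37 (11 of 11 higher) and 11 of 12 erythroid genes were higher, and their part was not tested. The interaction contains all 4 groups without methotrexate, so it uses the same arrays as the comparisons above. Since MS_A and CIA_B are among them, the values of Fcer2, Cr2 and Stap1 again cannot be taken as independent of their choice.

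Before therapy, arthritic and healthy rats (CIA_B against NOCIA_B) differed little in the brightest probe sets of the 7 genes, with a median difference of 0.05 against 0.08 over all genes. The differences ran from -0.59 ± 0.65 for Blk to 0.30 ± 0.43 for Fcer2, all within 1 SE of 0, with adjusted p by limma from 0.726 to 0.985 and 0.0% of probe sets called (8.47% at an unadjusted p under 0.05). Without NOCIA_B replicate 1 the count called was 168, again with none of the 7. CIA_B may be among the controls by which Fcer2, Cr2 and Stap1 were chosen. The values of these genes here thus cannot be taken as independent of that choice. Blk was lower in CIA_B without overlap (8.46 and 7.35 against 8.47 to 8.55), as 9.33% of probe sets were. Stap1, at 0.01 ± 0.27 in its brighter set, was at -0.67 ± 0.44 in the dimmer one, without overlap, and of the dimmer Cr2 sets the lowest were at -0.76 ± 0.62 and -0.74 ± 0.43. With 1 array left out Blk ran from -1.15 to -0.04 and Cr2 from -0.79 to -0.17. Platelet genes had a median of -1.65 (11 of 11 lower) and erythroid genes of -1.37 (12 of 12 lower), and their part was not tested. Of the 22 other B cell genes Ralgps2 was highest (1.09 ± 0.39) and the chemokine receptor Cxcr5 lowest (-1.08 ± 0.45), and Rasgrp3 was at -2.17 ± 0.51 in the signalling list, none of which passed.

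Methotrexate added to stimulation (MTXMS_A against MS_A) gave lower means for all 7 genes, with a median of -0.75 (-1.30 without MTXMS_A replicate 3) against -0.04 over all genes, and MTXMS_A against CIA_B a median of -0.22 (-0.76 without replicate 3) with 4 of 7 lower, or 6 of 7 without replicate 3, when Cd79b was at -0.24, Blk at -0.34 and Cd22 at 0.01. Against MS_A, Cd79b, Cd22 and Blk each turned above 0 without single arrays (at most 0.11, 0.10 and 0.19). Fcer2, Cr2 and Stap1 were chosen for low values with methotrexate, and MS_A and CIA_B enter other comparisons too. The values therefore stand side by side without a test. In the brightest probe sets the arrays of MTXMS_A and MS_A did not overlap for Fcer2, Cr2 and Stap1 (10.7% of all probe sets were lower in this way). Those of MTXMS_A and CIA_B did not overlap for Fcer2 and Stap1 (12.5%), while the dimmer Stap1 set overlapped there. No probe set was called in either comparison (0.0%), and 14.8% and 5.4% had an unadjusted p under 0.05. The actin 3' to 5' ratio was 3.13 to 5.01 in MTXMS_A, 2.44 to 2.69 in MS_A and 2.77 to 2.83 in CIA_B. It thus differed without overlap in both comparisons, and its part was not tested. Of the other B cell genes 15 of 22 were lower in MTXMS_A than in MS_A (median -0.46) and none passed: Cd180 was at -2.37 ± 0.49 and Bcl11a at -1.84 ± 0.41 (adjusted p 0.184 each by limma), and Cd40 (0.87 ± 0.54) and Vpreb3 (0.77 ± 0.64) were highest. In the signalling list 15 of 21 were lower (median -0.32) and none passed, with the phosphatase Ptpn6 at -1.52 ± 0.40 (adjusted p 0.188) and the lipid phosphatase Inpp5d highest at 0.72 ± 0.26. Against CIA_B, 13 of the 22 B cell genes were lower (median -0.04), with Cd180 at -1.04 ± 0.55 and Cxcr5 highest at 1.17 ± 0.45.

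The 7 genes varied together across arrays to unequal degrees. Over the 14 arrays Pearson's r was 0.89 for Cd79b with Cd22, 0.81 for Cd79b with Ms4a1 and 0.81 each for Fcer2 with Cr2, Fcer2 with Stap1 and Cr2 with Stap1, but 0.23 for Fcer2 with Cd22 and 0.14 for Cd22 with Stap1. The 3 genes chosen for their low values with methotrexate thus correlated with each other, which the choice itself favours, and Cd79b, Ms4a1, Cd22 and Blk formed the other tight set (r from 0.75 to 0.89). MTXMS_A replicate 3 weighed on this: without it r of Ms4a1 with Fcer2 went from 0.65 to 0.88 and that of Fcer2 with Blk from 0.36 to 0.76. The set of Cd79b, Ms4a1, Cd22 and Blk then loosened, to 0.63 for Cd22 with Blk and 0.68 for Cd79b with Blk. Ms4a1 was then at 0.82 with Cr2 and 0.81 with Stap1, while Cd22 with Stap1 stayed lower, at 0.42. All points share group differences and array scaling. After removal of the group means r was 0.56 for Fcer2 with Cd22 and 0.61 for Cd22 with Stap1. By this measure r was lower among Fcer2, Cr2 and Stap1 (0.61 to 0.67) than among Cd79b, Ms4a1, Cd22 and Blk (0.81 to 0.91).

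The genes most like the mean of the 7 over the 14 arrays, among 10100 other genes with a probe set tested, were Pou2af1 (r = 0.91), P2ry14 (0.89), Ighvl1, Chst1 (0.88 each), Kctd9 (0.87), Pdk2, Nxpe1 and Ly86 (0.86 each). Pou2af1 encodes a coactivator of octamer-binding factors in B cells, Ighvl1 an immunoglobulin variable segment and Ly86 the partner protein of Cd180. Pou2af1 was also the gene most like Cr2 (r = 0.95), ahead of Pdk2 (0.94) and Swap70 (0.92), and it lay under all 11 other arrays on MTXMS_A replicates 1 and 2 (9.29 and 9.78 against at least 9.86) and inside their range on replicate 3 (10.72). Fcer2 was most like Bin1 (0.92), Nudt5 (0.87) and Adipor2 (0.86), and Bin1 was below all other arrays on all 3 MTXMS_A arrays (9.89, 10.13 and 10.19 against 10.39 or more). Stap1 was most like Dph6 (0.92), Ly6c (0.91) and Faap20 (0.90). These are descriptions over 14 arrays that share the group differences.

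Upstream sequence could be set beside 2 of the 7 genes, Cr2, which was low on MTXMS_A replicates 1 and 2, and Cd22, which was not. RefSeq promoters of assembly GRCr8 (250 bases before and 50 after the gene start) were matched by the gene identifier that the probe annotation gives each symbol. They are shown because only these 2 of the 7 genes were matched, and their signals correlated at r = 0.38 (0.66 after removal of the group means). Capitals mark the motifs found, an E-box (CAGGTG, here as its reverse complement CACCTG, at position -139 from the gene start) in Cr2 and a purine-rich Ets-type motif (GAGGAAG, at -64) in Cd22.
Cr2, chr13:109244457-109244756, minus strand: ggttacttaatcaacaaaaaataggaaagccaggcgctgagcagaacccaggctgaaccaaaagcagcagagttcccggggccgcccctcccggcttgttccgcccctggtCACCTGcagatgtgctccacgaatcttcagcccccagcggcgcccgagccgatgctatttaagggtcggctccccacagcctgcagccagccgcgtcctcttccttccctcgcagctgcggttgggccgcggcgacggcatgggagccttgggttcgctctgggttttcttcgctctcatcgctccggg
Cd22, chr1:95259681-95259980, minus strand: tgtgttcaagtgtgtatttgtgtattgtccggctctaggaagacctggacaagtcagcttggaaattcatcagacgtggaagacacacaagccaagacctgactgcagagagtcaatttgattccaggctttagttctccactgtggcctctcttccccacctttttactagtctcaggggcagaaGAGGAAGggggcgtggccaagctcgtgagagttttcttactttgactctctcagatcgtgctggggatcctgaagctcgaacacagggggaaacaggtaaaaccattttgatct
Of 33469 promoters of this length 18.8% hold the E-box and 12.4% the Ets-type motif on either strand, so each is common. The octamer ATGCAAAT, held by 1.78% of promoters, is in neither of these windows. The motifs were searched after the signals of the genes were known, and the matches are letters in a window, not measured binding.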

How the data were processed

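PBMC of 14 rats were measured on Affymetrix Rat230 2.0 arrays. The authors ran MAS5 (affy package, its version not given in the sources used here) to obtain 1 linear-scale intensity per probe set, and the deposited arrays share a trimmed mean of 500 with 2% trimmed at each end. Precision is limited by the number of arrays. Detection calls were not used here. Groups come from the labels (NORA, RA, HAP, AP and MTXAP), and were matched here to the study's codes NOCIA_B, CIA_B, NOCIAMS_A, MS_A and MTXMS_A from their descriptions. Why CIA_B has 2 arrays is not stated. Separate animals were sampled, and p-values measure the spread between them.

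Of 31042 probe sets without controls, 18515 were tested, those that exceeded the median of the array on 2 or more of the 14. The annotation table gives 20826 probe sets 1 symbol, 436 several and 9780 none. A model of 5 group means was fitted to the log2 signals of all 14 arrays (no pseudocount) by limma 3.58.1 under R 4.3.3, with two-sided tests, empirical Bayes moderation and Benjamini-Hochberg adjustment over all 18515, called at 0.05. The fit was tested on simulated data. For lists, the probe set of highest mean signal stood for a gene (10107 genes). The members and lists (B cell genes 40, B cell receptor signalling 32, and markers of plasma, T and NK cells, monocytes, neutrophils, platelets and erythroid cells) were chosen with earlier results of these data known. Named were all probe sets of the 7 genes, up to the 2 highest and 2 lowest genes of the B cell and signalling lists in a comparison, the first 3 tested genes of other lists, the 8 genes most like the mean of the 7, and 3 each for Fcer2, Cr2 and Stap1. The alternatives were other filters, log2(signal + 50), quantile normalization, array weights, no moderation, a replicate block, only the groups compared, the study's thresholds (p of 0.05 and 2-fold, without adjustment), other probe sets of a gene, and leaving out arrays.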

Additional observations from a re-analysis of the deposited data

How the results depend on the processing

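In the 5 comparisons without methotrexate no brightest probe set of the 7 genes passed under any alternative run. Of the dimmer sets, the Stap1 set (2.93-fold, unadjusted p by limma 0.0235) and 1 Cr2 set (2.46-fold, 0.0450) passed the thresholds of the study in the interaction. MS_A may be among the controls by which both genes were chosen, so these values cannot be taken as independent of that choice. The count of called probe sets, 0 in every comparison, changed as follows. With array weights it was 765 in CIA_B against NOCIA_B, 1651 in the interaction, 1 in NOCIAMS_A against NOCIA_B and 2 in MTXMS_A against MS_A. At the thresholds of the study it was 866, 670, 426, 347, 1886, 423 and 833 in, by order, CIA_B against NOCIA_B, MS_A against CIA_B, NOCIAMS_A against NOCIA_B, MS_A against NOCIAMS_A, the interaction, MTXMS_A against CIA_B and MTXMS_A against MS_A. Without a filter, and with only the groups compared, it was 1 in MS_A against CIA_B, and without moderation 1 in MS_A against NOCIAMS_A and 5 in MTXMS_A against MS_A. With single arrays left out it ran from 0 to 168 in CIA_B against NOCIA_B (highest without NOCIA_B replicate 1), from 0 to 980 in the interaction (without the same array), and from 0 to 4, 0 to 4, 0 to 13 and 0 to 1 in MS_A against CIA_B, NOCIAMS_A against NOCIA_B, MTXMS_A against CIA_B and MTXMS_A against MS_A. The lowest array weights were 0.289 and 0.321 (NOCIA_B replicates 3 and 1) and 0.447 (MTXMS_A replicate 3). The cause of the changes in count was not tested.

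Quantile normalization turned the sign of small differences: Cd22 in CIA_B against NOCIA_B to -0.043, Cr2 in NOCIAMS_A against NOCIA_B to -0.016 and Cd22 in the interaction to 0.040. Array weights turned Cr2 in NOCIAMS_A against NOCIA_B to -0.35, and in MS_A against NOCIAMS_A Cd79b to 0.040, Cd22 to 0.056 and Blk to 0.11. Other probe sets of the gene gave -0.67 for Stap1 in CIA_B against NOCIA_B, -0.57, -0.58 and -0.53 for Cr2 and -0.089 for Blk in NOCIAMS_A against NOCIA_B, and -0.10 for Cr2 and 0.031 for Blk in MS_A against NOCIAMS_A. With both arrays that stand apart left out, Ms4a1 in the interaction was at -0.019 and the medians of the 7 genes with methotrexate were -0.76 to CIA_B and -1.30 to MS_A. Leaving out 1 array at a time gave these ranges for the log2 differences that changed direction. In CIA_B against NOCIA_B it was Cd79b from -0.027 to 0.42 (turned without NOCIA_B replicate 2), Fcer2 from -0.0011 to 0.61 (turned without CIA_B replicate 1), Cd22 from -0.061 to 0.19 (turned without NOCIA_B replicate 2 or CIA_B replicate 1) and Stap1 from -0.052 to 0.089 (turned without NOCIA_B replicate 1 or 2 or CIA_B replicate 1). In MS_A against CIA_B it was Fcer2 from -0.077 to 0.75 (turned without MS_A replicate 1). In NOCIAMS_A against NOCIA_B it was Cr2 from -0.32 to 0.30 (turned without NOCIA_B replicate 1 or NOCIAMS_A replicate 1 or 3). In MS_A against NOCIAMS_A it was Cd79b from -0.53 to 0.16 (turned without NOCIAMS_A replicate 1 or MS_A replicate 3), Ms4a1 from -0.067 to 0.43 (turned without NOCIAMS_A replicate 2 or MS_A replicate 2), Fcer2 from -0.33 to 0.50 (turned without NOCIAMS_A replicate 2 or MS_A replicate 1), Cd22 from -0.14 to 0.091 (turned without NOCIAMS_A replicate 3 or MS_A replicate 3) and Blk from -0.30 to 0.24 (turned without NOCIAMS_A replicate 1 or MS_A replicate 3). In the interaction it was Ms4a1 from -0.21 to 0.29 (turned without NOCIA_B replicate 3 or CIA_B replicate 2 or NOCIAMS_A replicate 2 or MS_A replicate 1 or 2), Fcer2 from -0.64 to 0.20 (turned without CIA_B replicate 1 or MS_A replicate 3), Cd22 from -0.22 to 0.037 (turned without NOCIA_B replicate 2 or CIA_B replicate 1 or MS_A replicate 3) and Blk from -0.038 to 1.08 (turned without CIA_B replicate 2). In MTXMS_A against CIA_B it was Cd79b from -0.24 to 0.48, Ms4a1 from -0.76 to 0.20 and Blk from -0.34 to 1.05, and in MTXMS_A against MS_A Cd79b from -0.62 to 0.11, Cd22 from -0.25 to 0.10 and Blk from -1.07 to 0.19. The median of the 7 ran from -0.76 to 0.20 in MTXMS_A against CIA_B and from -1.30 to -0.34 in MTXMS_A against MS_A, lowest without MTXMS_A replicate 3.

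Each rat was killed when its blood was drawn, so replicate numbers mark no shared animal. Deviations of arrays of the same number from their group means correlated at -0.42 to 0.37. With means of 2 or 3 arrays, these values cannot show whether samples are linked. A fit with the replicate block called 0 probe sets in each comparison, and turned Ms4a1 in the interaction to -0.097, with no other direction of the 7 genes changed. Groups of 2 or 3 arrays limit all comparisons, and Fcer2 rests on a single probe set, since its other set was dim. Of the other Cr2 sets, 1381328_at was above the array median on only 2 arrays and the rest on 11 or 12. None of them had MTXMS_A replicates 1 and 2 both under all arrays of the other groups.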
